A study of Homo sapiens with 6 samples.

Results

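Collagen and laminin chains were followed in cells of NCI-H1299, a line established from a human non-small cell lung carcinoma, after exposure to 6p, a derivative of the Streptomyces natural product platensimycin. The members are the rows of the deposited expression table whose symbol is that of a collagen chain (COL, a number, A, a number) or of a laminin alpha, beta or gamma chain. They number 51 of 16070 listed genes, of which 50 are described, and 5 further chain genes (COL6A5, COL6A6, COL9A1, COL10A1 and COL14A1) were not analysed here. RNA was sequenced from 3 libraries of cells kept for 48 h with 25 µM 6p and from 3 libraries of control cells, all in medium with 10% serum. The protocol gives the controls 0.1% DMSO as vehicle, while another label field calls them untreated. The labels describe the samples as independent without saying that they were separate cultures, so p-values measure only the spread between these samples.

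Collagens are trimers of chains wound around each other through long runs of glycine-led repeats. Some form fibrils, collagen IV forms the sheet of basement membranes, collagen VI forms beaded microfilaments, and others sit on fibrils or in the plasma membrane. Laminins are cross-shaped trimers of 1 alpha, 1 beta and 1 gamma chain that bind integrins and dystroglycan and seed basement membranes. Epithelial and carcinoma cells make their own laminins, whereas most fibrillar collagen of a tumour is made by fibroblasts.

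The start regions of 5 chain genes are shown because the results turn on them: COL6A2 rose, COL17A1 and LAMB3 fell, COL4A2 was nearly silent with its head-to-head partner COL4A1, and COL4A5 was the only collagen IV chain above the low-value limit. They were picked with these values known. Each window holds 250 bases before and 50 after a RefSeq gene start on GRCh38.p14, 5′ to 3′ on the gene's own strand. They lie at chr21:46097862-46098161 (plus strand) for COL6A2, chr10:104085831-104086130 (minus) for COL17A1, chr1:209651325-209651624 (minus, 1 of 3 listed starts) for LAMB3, chr13:110307034-110307333 (plus) for COL4A2 and chrX:108439588-108439887 (plus) for COL4A5. Capitals mark every match, on either strand, to 5 motifs, and matches to different motifs may overlap. The motifs are GGGCGG, known as the GC box, the box named CCAAT, the start-site box written TATAAA, the AP-1 site searched as TGANTCA, and the amino acid response element read by ATF4, searched as TGATGNAA.
COL6A2: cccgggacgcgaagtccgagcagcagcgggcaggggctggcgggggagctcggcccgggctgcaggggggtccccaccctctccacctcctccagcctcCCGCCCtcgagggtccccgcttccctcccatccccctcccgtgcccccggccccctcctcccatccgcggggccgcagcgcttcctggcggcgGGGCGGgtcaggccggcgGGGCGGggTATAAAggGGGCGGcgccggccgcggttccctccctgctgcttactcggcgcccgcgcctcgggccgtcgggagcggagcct
COL17A1: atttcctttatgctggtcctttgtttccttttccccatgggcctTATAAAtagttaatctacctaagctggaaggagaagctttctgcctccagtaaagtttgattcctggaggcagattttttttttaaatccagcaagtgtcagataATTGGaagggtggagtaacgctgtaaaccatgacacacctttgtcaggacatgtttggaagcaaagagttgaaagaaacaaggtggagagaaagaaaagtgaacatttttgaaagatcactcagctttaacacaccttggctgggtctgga
LAMB3: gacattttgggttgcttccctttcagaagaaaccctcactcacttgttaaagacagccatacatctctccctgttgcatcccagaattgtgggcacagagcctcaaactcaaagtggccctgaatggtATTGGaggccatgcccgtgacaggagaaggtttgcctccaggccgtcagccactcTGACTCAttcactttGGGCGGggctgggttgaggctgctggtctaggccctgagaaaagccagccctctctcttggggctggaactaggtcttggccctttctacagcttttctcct
COL4A2: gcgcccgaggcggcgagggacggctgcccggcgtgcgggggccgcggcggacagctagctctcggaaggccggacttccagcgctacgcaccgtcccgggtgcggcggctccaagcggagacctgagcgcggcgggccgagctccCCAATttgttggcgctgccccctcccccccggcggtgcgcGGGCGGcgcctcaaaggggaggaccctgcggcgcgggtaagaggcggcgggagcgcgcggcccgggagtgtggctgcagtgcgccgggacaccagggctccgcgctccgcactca
COL4A5: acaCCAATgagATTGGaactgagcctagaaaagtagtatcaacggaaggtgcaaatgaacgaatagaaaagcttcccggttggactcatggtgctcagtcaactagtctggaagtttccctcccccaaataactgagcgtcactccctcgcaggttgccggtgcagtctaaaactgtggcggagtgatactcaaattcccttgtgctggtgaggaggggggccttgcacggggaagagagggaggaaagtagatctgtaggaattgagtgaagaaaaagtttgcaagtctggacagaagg

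The windows differed most in base composition. G and C made up 79.3% of the COL6A2 window and 77.7% of that of COL4A2, against 40.7% for COL17A1, 49.3% for COL4A5, 53.7% for LAMB3 and a median of 58.7% over all 35116 windows. COL6A2 held 4 GC boxes and 1 TATA box, COL17A1 held 1 TATA box and 1 CCAAT box, and LAMB3 held 1 AP-1 site, 1 GC box and 1 CCAAT box. The windows of the other 2 LAMB3 starts, beginning at 209652280 and 209652376, hold 1 GC box each and neither of the other motifs seen in the printed one, with 60.7% and 61.3% G and C. Of 49 windows found for 38 of the chains, 31 held a GC box, which 45.0% of all windows hold. A CCAAT box was in 13 of them (34.6% of all windows), a TATA box in 5 (11.5%) and an AP-1 site in 2 (7.71%), those of LAMA3 and LAMB3. The amino acid response element was in 1 (3.62% of all windows), a window of COL21A1, a chain too low to test. A match is a description of the letters and not evidence of binding. The windows of COL4A1 and COL4A2, genes on opposite strands, share 226 bases, those of COL4A4 and COL4A3 share 82, and those of COL4A6 and COL4A5 share 121.

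The fragment totals, recovered from the values, ran from 16775655 to 19957335 per library. In control replicate 3 and 6p replicate 1, long genes read lower than in the other libraries of the same group. Across genes, length and the difference from those libraries gave a Spearman's rho of -0.68 and -0.52. Markers of fibroblasts, endothelium and leukocytes were near 0. The 5 fibroblast markers found (DCN, PDGFRA, PDGFRB, FAP and POSTN) summed to between 0.122 and 0.189 FPKM in control and between 0.129 and 0.300 in 6p libraries. The 5 endothelial markers summed to at most 0.385 FPKM. The 4 leukocyte markers found summed to at most 0.420 FPKM. The 5 smooth muscle and pericyte markers were higher, summing to between 4.88 and 5.18 FPKM in control and between 4.46 and 4.78 in 6p libraries. Of these, 2 of 5, ACTA2 and RGS5, were above 0.5 FPKM without passing the test. Of 5 carcinoma line markers, VIM, KRT18 and KRT8 were high and the list's lowest sum was 3512 FPKM, while KRT19 and EPCAM reached no more than 0.196 and 0.539 FPKM. KRT18 was the only marker in these lists that passed the test, at 0.36 (log2 fold change, higher in 6p).

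The cells expressed a narrow set of chains. Of the 50, 18 averaged 0.5 FPKM or more across all 6 libraries, the limit for testing, and all 18 reached it in both groups. The other 32 had means of at most 0.359 FPKM, and 16 of these had no more than 10 fragments in all libraries together. The collagen VI chains COL6A2 and COL6A1 were the most abundant members. They made up between 62.8% and 64.7% of the summed collagen FPKM in control libraries and between 72.5% and 72.9% in 6p libraries. COL6A3, the third chain of the classical collagen VI trimer, had 0 to 3 fragments per library. Fibrillar collagens were low: COL27A1, a chain of thin fibrils in cartilage, was the only 1 of 11 above the limit. COL1A1 ran from 0.124 to 0.317 FPKM, and COL1A2 and COL3A1 had 1 fragment each in all. COL4A1 and COL4A2, the chains of the common basement membrane collagen IV, had 0 to 2 and 0 to 1 fragments per library. A count of 0 still allows up to 3 fragments, at most 0.0115 FPKM for COL4A1 and 0.0277 for COL4A2, which covers counting error only. Laminins were more evenly expressed, with LAMC1, LAMC3, 3 of 4 beta chains and 3 of 5 alpha chains above the limit.

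**Figure D1:**
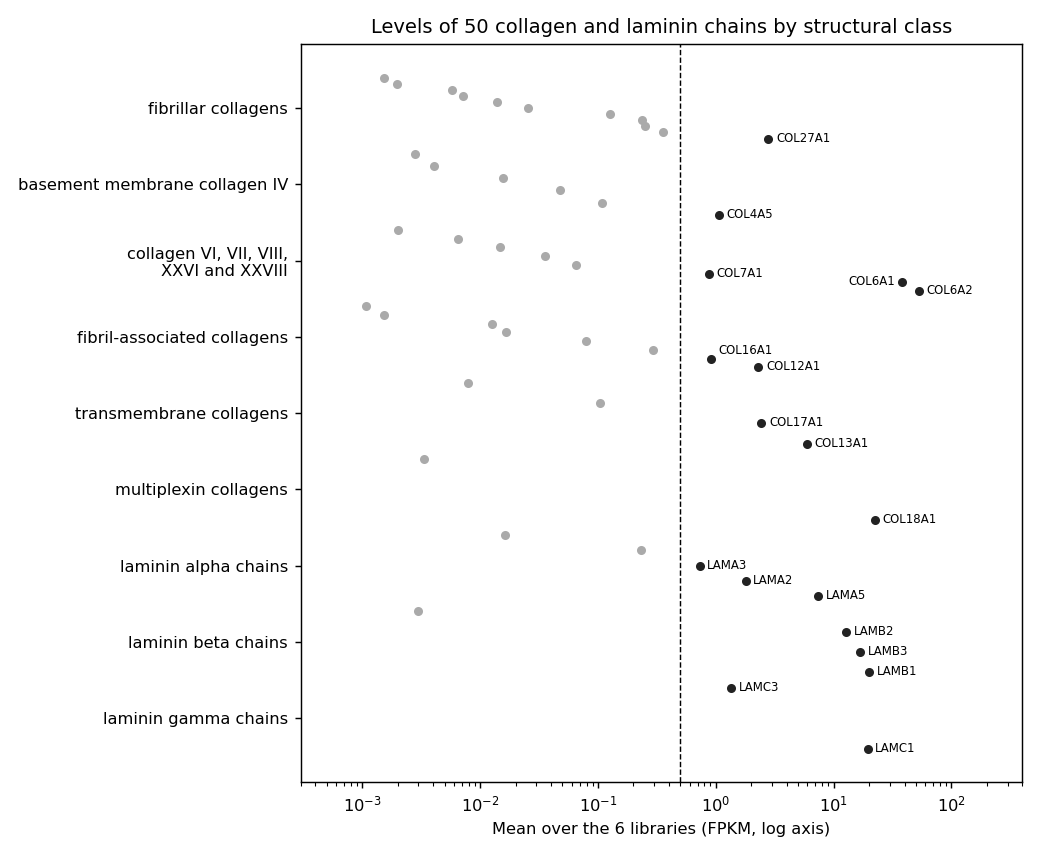
Mean FPKM over the 6 libraries (log axis) for each of 50 chains, by structural class; black points are the 18 tested chains, grey points the 32 below 0.5 FPKM (dashed line). COL6A1 and COL6A2 lie furthest to the right, and COL27A1 and COL4A5 stand alone in their classes.

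After treatment with 6p, transcripts of COL6A2, COL6A1, LAMB1, LAMC3 and COL16A1 were higher, and those of COL17A1 and LAMB3 were lower. These 7 of 18 tested chains passed at adjusted p under 0.05 (limma on log2(FPKM + 1), adjusted over all tested genes). Of the 18, 5 were higher, against 21.3% of the 11745 tested genes, and 2 were lower, against 25.1%. In 7 of the 18 chains every 6p library lay above every control library (26.0% of tested genes), and in 3 every 6p library lay below (31.5%). With so many genes changed in this comparison, counts of this size say little about the chains as a family. Their median log2 fold change was 0.17, beside -0.04 for all tested genes. Rescaling to TPM, which moved the median of all tested genes by -0.17, left 2 chains higher (COL6A2 and COL16A1) and 2 lower (COL17A1 and LAMB3). Under TPM 13.0% of all tested genes were higher and 34.0% lower. Of all changed genes, 27.7% were then higher, against 45.9% as deposited. In GENCODE release 29 on GRCh38, COL6A1 (NCBI gene 1291) lies on chromosome 21, 45981737 to 46005050, and COL6A2 (1292) on chromosome 21, 46098097 to 46132849. LAMB3 (3914) and COL16A1 (1307) lie on chromosome 1, at 209614870 to 209652466 and 31652247 to 31704319. COL17A1 (1308) lies on chromosome 10, 104031286 to 104085957, LAMB1 (3912) on chromosome 7, 107923799 to 108003255, and LAMC3 (10319) on chromosome 9, 131009082 to 131094473.

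**Figure D2:**
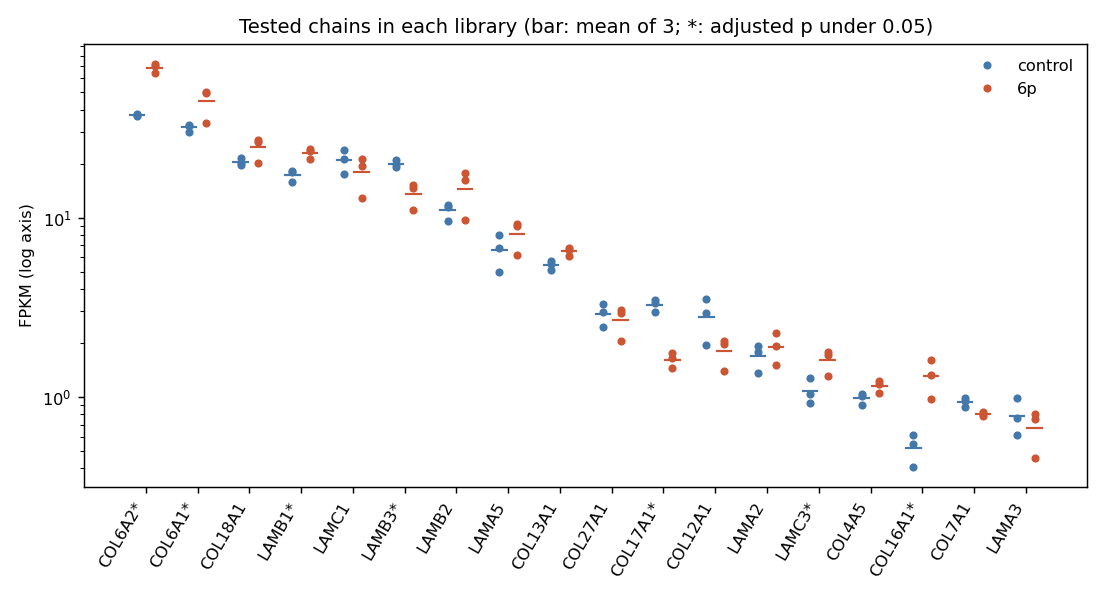
FPKM (log axis) of the 18 tested chains in each of 3 control and 3 6p libraries, with bars at the group means and asterisks on the 7 chains past the threshold. The COL6A2 groups are far apart, and in COL6A1 6p replicate 1 sits beside the controls.

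Transcripts of the collagen VI chains COL6A2 and COL6A1, the most abundant collagen transcripts here, were higher in 6p libraries. COL6A2 was at 36.7, 37.2 and 37.9 FPKM in control replicates 1 to 3 and at 64.1, 70.0 and 71.7 FPKM in 6p replicates 1 to 3. The groups did not overlap and the gap between them was several times the spread within either. The log2 fold change of COL6A2 was 0.86 ± 0.07 (limma adjusted p = 9.64e-05; ± after a fold change is its SE throughout), and it passed in all 21 alternatives. COL6A1 was at 33.0, 32.5 and 30.2 FPKM in control and at 33.6, 49.5 and 49.97 FPKM in 6p libraries. Here 6p replicate 1 stood only just above the highest control, while the other two 6p libraries were well above. COL6A1 changed by 0.44 ± 0.15 (limma adjusted p = 0.0367). That call was lost in 8 of 21 alternatives: with no low-value filter (0.0721), under TPM (0.258), with the replicate number as a block (0.0678), and without control replicate 1 (0.0740), 2 (0.0867) or 3 (0.0841) or 6p replicate 2 (0.106) or 3 (0.119). COL7A1, which forms the anchoring fibrils under epithelia, was at 0.952, 0.880 and 0.987 FPKM in control and at 0.821, 0.800 and 0.785 FPKM in 6p libraries. The groups did not overlap, but the gap was small and the change did not pass. COL7A1 had 0.940 ± 0.0549 FPKM in control and 0.802 ± 0.0180 in 6p (n = 3 each, ± after a level being the SD throughout; -0.11 ± 0.07, limma adjusted p = 0.218).

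Among collagens that decorate fibrils, COL16A1 rose. It was at 0.545, 0.408 and 0.611 FPKM in control and at 1.60, 0.969 and 1.33 FPKM in 6p libraries, between 46 and 72 fragments against 105 to 196. All 6p libraries were above all controls, with a wide spread among them. Its log2 fold change was 0.59 ± 0.11 (limma adjusted p = 0.003945) and passed in all 19 alternatives that tested it. The added 1 in log2(FPKM + 1) shrinks changes at such low levels, and limma voom on the recovered fragments gave 1.31 ± 0.24. COL12A1, a fibril-associated chain of tendon and of tumour stroma, was at 3.502, 2.94 and 1.96 FPKM in control and at 1.39, 1.97 and 2.06 FPKM in 6p libraries. Control replicate 3 lay within the 6p range, and the change of -0.42 ± 0.16 did not pass (limma adjusted p = 0.0629). Without that library it was -0.59 (0.00891), but dropping the lowest control was bound to widen the difference. COL12A1 passed in 3 of 20 alternatives, and with the length trend removed it was at -0.19 ± 0.09 without passing (limma adjusted p = 0.116).

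The transmembrane collagens went in different directions. COL17A1, the hemidesmosome collagen that ties basal epithelial cells to the basement membrane, was at 3.48, 2.97 and 3.33 FPKM in control and at 1.45, 1.76 and 1.65 FPKM in 6p libraries. Every 6p library was below every control by more than the spread within either group. It fell by 0.70 ± 0.09 on the log2 scale (limma adjusted p = 0.000530), by 1.02 with voom, and passed in all 20 alternatives that tested it. COL13A1, found at cell-matrix contacts and at the neuromuscular junction, was at 5.07, 5.53 and 5.69 FPKM in control and at 6.61, 6.07 and 6.73 FPKM in 6p libraries. The groups did not overlap, yet its change of 0.22 ± 0.08 missed the threshold (limma adjusted p = 0.0537). COL13A1 passed in 7 of 21 alternatives, among them without control replicate 3 (0.0425), the control nearest the 6p libraries.

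Other collagens above the limit did not pass. COL18A1, whose C-terminal fragment is endostatin, was at 21.5, 19.7 and 20.2 FPKM in control and at 20.1, 26.5 and 27.2 FPKM in 6p libraries. As for COL6A1, 6p replicate 1 read low, and here it fell inside the control range. The change was 0.24 ± 0.11 (limma adjusted p = 0.114), and without 6p replicate 1 it was 0.38 (0.00454). Dropping the lowest 6p library was bound to widen the difference. COL18A1 passed in 5 of 21 alternatives. COL18A1 overlaps SLC19A1, a folate transporter gene on the opposite strand; the kit was stranded, but no source used here gives whether counting used strand. COL4A5, the X-linked collagen IV chain of kidney and epithelial basement membranes, was at 1.04, 1.01 and 0.8996 FPKM in control and at 1.05, 1.22 and 1.19 FPKM in 6p libraries (0.12 ± 0.07, limma adjusted p = 0.217). COL27A1 was at 3.30, 2.99 and 2.44 FPKM in control and at 2.06, 3.07 and 2.93 FPKM in 6p libraries (-0.09 ± 0.13, limma adjusted p = 0.603). The COL27A1 groups overlapped broadly.

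Of the gamma chains described, LAMC3 rose and LAMC1 did not pass. LAMC3, a gamma chain of specialised basement membranes, was at 1.04, 1.28 and 0.927 FPKM in control and at 1.31, 1.72 and 1.79 FPKM in 6p libraries. Its lowest 6p and highest control libraries nearly touched. LAMC3 changed by 0.32 ± 0.10 (limma adjusted p = 0.0326), and 7 of 20 alternatives ended the call: no low-value filter (0.0520), TPM (0.185), the replicate block (0.0620), and leaving out control replicate 1 (0.0916) or 3 (0.0783) or 6p replicate 2 (0.0896) or 3 (0.105). LAMC1, the most widely used gamma chain, was at 23.9, 21.3 and 17.6 FPKM in control and at 12.9, 21.2 and 19.5 FPKM in 6p libraries. Both groups spread widely and overlapped (-0.23 ± 0.18, limma adjusted p = 0.311).

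Of the beta chains 1 rose and 1 fell. LAMB1, the common beta chain of early and widespread laminins, was at 18.1, 18.1 and 15.8 FPKM in control and at 21.1, 24.1 and 23.4 FPKM in 6p libraries. All 6p libraries exceeded all controls. LAMB1 rose by 0.38 ± 0.09 (limma adjusted p = 0.00795), with TPM the 1 alternative of 21 that ended the call (0.192). It overlaps DLD, a dehydrogenase subunit gene, at its end on the opposite strand. LAMB3, a beta chain of the epithelial laminin that anchors hemidesmosomes, was at 19.2, 20.8 and 19.98 FPKM in control and at 10.98, 15.2 and 14.6 FPKM in 6p libraries. Every 6p library was below the controls, 6p replicate 1 most. LAMB3 fell by 0.54 ± 0.12 on the log2 scale (limma adjusted p = 0.00725) and passed in all 21 alternatives. LAMB2, a beta chain of kidney, vessel and synaptic laminins, was at 11.8, 11.5 and 9.61 FPKM in control and at 9.69, 16.2 and 17.6 FPKM in 6p libraries. Here 6p replicate 1 lay at the bottom of the control range, and the change of 0.34 ± 0.20 did not pass (limma adjusted p = 0.187). Without 6p replicate 1 it was 0.58 (0.00391), but dropping the lowest 6p library was bound to widen the difference. LAMB2 passed in 4 of 21 alternatives.

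No laminin alpha chain passed. LAMA5, the most abundant of them here and a chain of the common adult epithelial laminins, was at 8.02, 6.75 and 5.00 FPKM in control and at 6.21, 9.01 and 9.21 FPKM in 6p libraries. The lowest library of each group was control replicate 3 and 6p replicate 1, and the groups overlapped (0.27 ± 0.18, limma adjusted p = 0.240). LAMA5 overlaps ADRM1, a proteasome ubiquitin receptor gene on the opposite strand with a mean of 99.2 FPKM, and the strand caveat given for COL18A1 applies here too. LAMA2, the muscle and nerve alpha chain, changed by 0.10 ± 0.12 (0.509), with the sign reversed under TPM (-0.02). LAMA3, the alpha partner of LAMB3, had 0.785 ± 0.183 FPKM in control and 0.670 ± 0.188 in 6p (-0.10 ± 0.11, limma adjusted p = 0.491). Below the limit, LAMA4, an alpha chain of vessels and muscle, was at 0.286, 0.361 and 0.256 FPKM in control and at 0.159, 0.135 and 0.198 FPKM in 6p libraries, or 37 to 50 against 18 to 25 fragments. The LAMA4 groups did not overlap. COL5A2, a fibrillar chain, was at 0.278, 0.288 and 0.231 FPKM in control and at 0.380, 0.559 and 0.418 FPKM in 6p libraries, also without overlap. Both were picked for this pattern. Among the other 30, COL11A1 and COL4A4 (6p below control) and COL8A2 and LAMA1 (6p above) showed it too, at lower levels. No share of non-overlap was computed for genes under the limit. The other 30 chains below the limit (COL1A1, COL1A2, COL2A1, COL3A1, COL4A1, COL4A2, COL4A3, COL4A4, COL4A6, COL5A1, COL5A3, COL6A3, COL8A1, COL8A2, COL9A2, COL9A3, COL11A1, COL11A2, COL15A1, COL19A1, COL20A1, COL21A1, COL22A1, COL23A1, COL24A1, COL25A1, COL26A1, COL28A1, LAMA1 and LAMB4) reached no more than 0.4004 FPKM in any library.

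These genes are long, and fold changes in this series ran with length. The tested chains had a median length of 6370 nt, from 3443 nt for COL13A1 to 15854 nt for LAMA2, against 3904 nt for all tested genes, and 14 of 18 were in the 3 longest of 10 equal groups of genes. The median log2 fold change of all tested genes went from 0.25 in the shortest group to -0.22 in the longest. Among the 18 chains, Spearman's rho between length and log2 fold change was -0.31, a description over genes that share the same 6 libraries. The shortest chain, COL13A1, lies in length group 5, and groups 5 to 10 all had a median below 0. Removing each library's trend on length therefore raises the fold change of genes of this length. With it removed, the fold change was higher for all 18 chains, and their median became 0.32 beside -0.01 for all tested genes. Then 11 of 18 chains were higher, against 25.5% of tested genes, and 2 lower, against 27.8%. The 7 calls made on the values as deposited all passed in the same direction. COL6A2 was at 0.94 ± 0.06, COL17A1 at -0.59 ± 0.08 and LAMB3 at -0.47 ± 0.09. The 6 added higher chains were LAMA5 at 0.51 ± 0.10, LAMB2 at 0.46 ± 0.15, COL18A1 at 0.38 ± 0.08, LAMA2 at 0.35 ± 0.07, COL4A5 at 0.29 ± 0.07 and COL13A1 at 0.23 ± 0.08. Their limma adjusted p ran from 0.00265 for LAMA5 to 0.0288 for COL13A1. COL27A1, COL7A1 and LAMA3 went from below to above 0 without passing (0.12, 0.11 and 0.14), and LAMC1 stayed near 0 at -0.05.

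**Figure D3:**
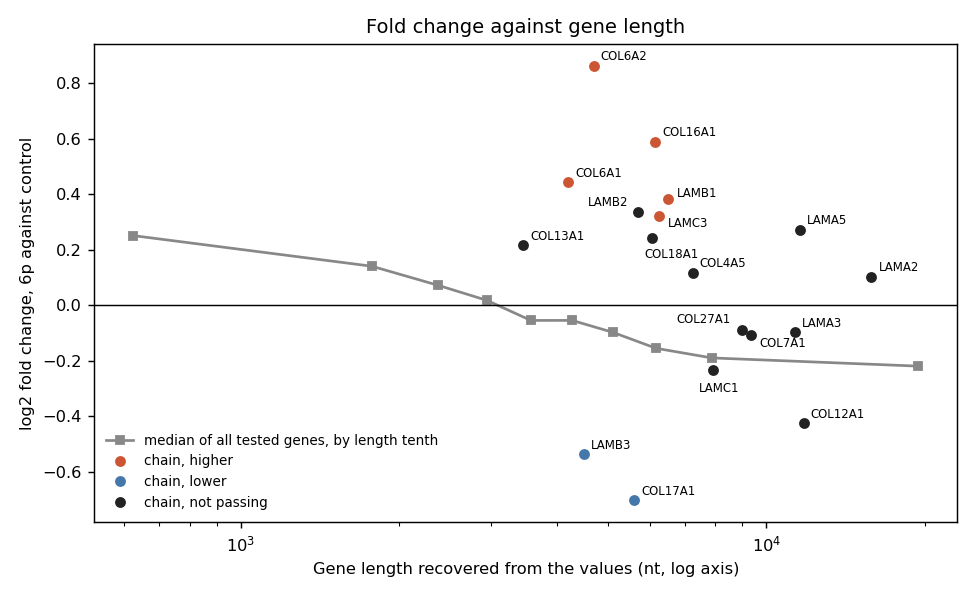
Log2 fold change of 6p against control on the log2(FPKM + 1) scale (vertical) against gene length in nt (log axis), for the 18 tested chains and, as grey squares, the median of all tested genes in 10 equal length groups. The grey line falls from 0.25 to -0.22, and most chains lie above it while COL17A1 and LAMB3 lie well below.

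**Figure D4:**
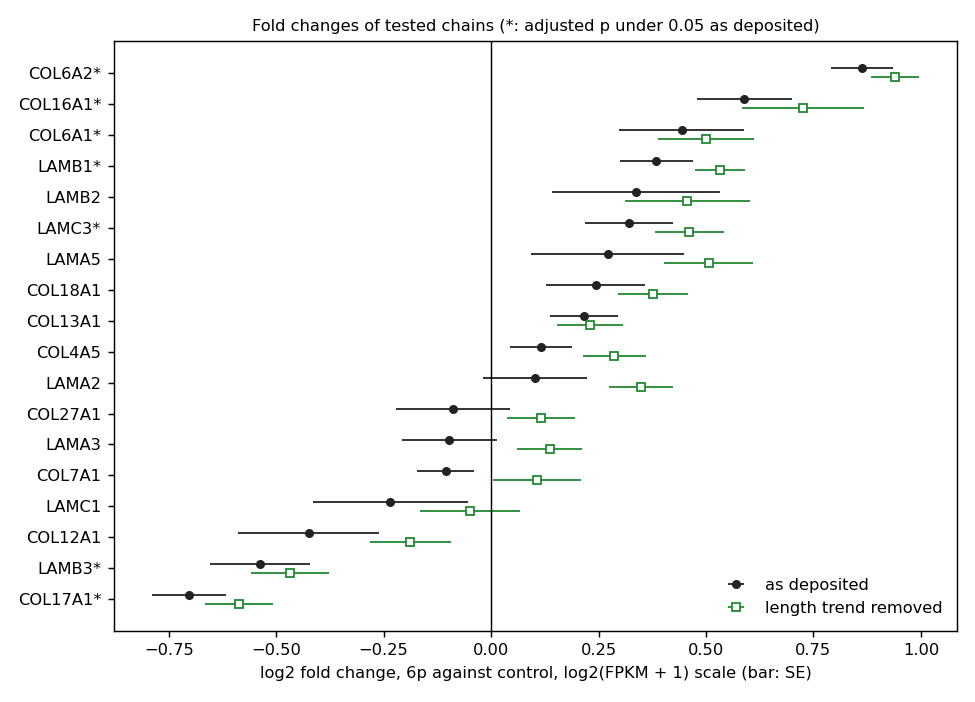
Log2 fold change of the 18 tested chains with SE bars, on the values as deposited (filled circles) and with each library's length trend removed (open squares). Squares lie to the right of circles for all 18 chains, and the order of the extremes, COL6A2 at the top and COL17A1 at the bottom, is kept.

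Ratios between chains that assemble together are set within a library, so a common scaling of the library cancels. Of 6 partner pairs listed, 3 had both chains at a mean of at least 1 FPKM. Of these 3, the LAMB1 to LAMC1 ratio differed most over all libraries, a rank that depends on 6p replicate 1. In that library, where long genes read lower, this ratio was furthest from the controls. With 6p replicate 1 left out, the LAMA5 to LAMC1 ratio differed more. LAMB1 to LAMC1 was 0.757, 0.849 and 0.898 in control and 1.63, 1.14 and 1.203 in 6p libraries, a 1.57-fold difference. LAMC1 was the more abundant transcript per length in every control library and LAMB1 in every 6p library. LAMA5 to LAMC1 was 0.335, 0.317 and 0.285 in control and 0.480, 0.425 and 0.473 in 6p libraries (1.47-fold). COL6A2 to COL6A1 was 1.11, 1.14 and 1.26 in control and 1.91, 1.41 and 1.44 in 6p libraries (1.34-fold). In all 3 pairs the 6p libraries lay above the controls. Both laminin ratios have LAMC1 as denominator, so they are not separate observations. A trend on length does not cancel in a ratio, and LAMB1, LAMC1 and LAMA5 are 6502, 7929 and 11573 nt long. No share of non-overlap was computed for other gene pairs. The exact two-sided permutation test gave p = 0.10 for each, the smallest that 3 against 3 libraries allow, and 0.10 after adjustment over the 3 pairs.

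**Figure D5:**
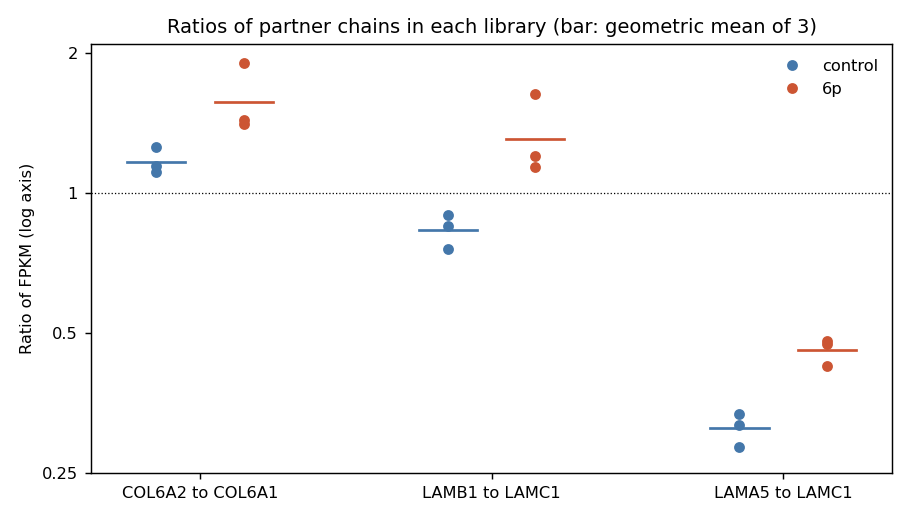
Ratio of FPKM of partner chains (log axis) in each of 3 control and 3 6p libraries, with bars at the geometric means. For LAMB1 to LAMC1 the controls lie below 1 and the 6p libraries above it.

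Genes that fold and modify collagen in the endoplasmic reticulum changed in both directions. Of 19 tested, 8 were higher and 4 lower, against 21.3% and 25.1% of all tested genes, with a median of 0.13 beside -0.04. The same shares and median are the background for the 5 lists that follow. SERPINH1, the collagen chaperone HSP47, rose from 47.7 ± 2.71 to 69.8 ± 3.29 FPKM (0.54 ± 0.08), and FKBP10, a prolyl isomerase needed for collagen crosslinking, from 53.9 ± 0.688 to 74.4 ± 6.51 FPKM. P4HA2, a catalytic subunit of prolyl 4-hydroxylase, rose by 0.39 ± 0.08 and P3H3, a prolyl 3-hydroxylase family member, by 0.39 ± 0.08. The 4 lower members, which the naming rule did not select, were the lysyl hydroxylases PLOD1 and PLOD2, the collagen galactosyltransferase COLGALT1 and the isomerase FKBP14, at -0.37, -0.39, -0.38 and -0.31. Both PLOD genes passed in every alternative. The COLGALT1 call was lost with the replicate block (0.0638) and without control replicate 1 (0.0821) or 2 (0.0748). The FKBP14 call was lost with the block (0.0673), with the length trend removed and the block (0.0608), and without control replicate 1 (0.0720) or 2 (0.0907) or 6p replicate 2 (0.0531). In large cargo export, 2 of 12 were higher and 1 lower (median -0.11). MIA2, a cargo receptor family gene of endoplasmic reticulum exit sites, rose from 2.32 ± 0.151 to 4.98 ± 0.349 FPKM, and KLHL12, an adaptor for ubiquitination of the COPII coat, by 0.24 ± 0.07. SEC23A, a COPII coat subunit, fell from 20.5 ± 1.99 to 15.3 ± 1.15 FPKM.

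In procollagen processing and crosslinking, 1 of 9 tested genes was higher and 3 lower (median 0.12). LOXL2, a lysyl oxidase that crosslinks collagen IV and other collagens, fell from 49.1 ± 3.75 to 29.2 ± 6.07 FPKM (-0.75 ± 0.15). TGM2, a transglutaminase, fell from 12.7 ± 0.842 to 8.99 ± 1.39 FPKM, and ADAMTS3, a procollagen N-propeptidase family member, from 2.10 ± 0.387 to 1.11 ± 0.0835 FPKM. PCOLCE, an enhancer of C-propeptide cleavage, rose by 0.34 ± 0.08. Of other basement membrane genes, 1 of 9 was higher and 1 lower (median -0.15). NID1, the nidogen that links laminin to collagen IV, fell from 6.24 ± 1.06 to 3.21 ± 0.618 FPKM, and PAPLN, papilin, rose from 8.11 ± 1.06 to 11.7 ± 1.47 FPKM. Of interstitial matrix genes, 2 of 10 were higher and 3 lower (median -0.25). THBS1, thrombospondin 1, fell from 20.2 ± 3.23 to 6.93 ± 1.14 FPKM (-1.42 ± 0.14), and VCAN, the proteoglycan versican, from 1.29 ± 0.378 to 0.481 ± 0.0733 FPKM. FBLN2, a fibulin, rose from 5.63 ± 0.396 to 9.36 ± 0.754 FPKM, and MFAP2, a microfibril protein, from 31.1 ± 4.63 to 48.9 ± 0.874 FPKM.

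Among receptors for collagen and laminin, 5 of 14 tested genes were higher and 3 lower (median 0.24). BCAM, a receptor for laminins with the LAMA5 chain, rose from 20.5 ± 1.00 to 34.1 ± 2.77 FPKM, and MRC2, which takes up collagen for degradation, from 9.14 ± 0.992 to 14.9 ± 2.42 FPKM. DAG1, which encodes dystroglycan, fell from 23.8 ± 4.33 to 12.3 ± 2.40 FPKM (-0.91 ± 0.17), and ITGA6, the laminin-binding integrin alpha chain of hemidesmosomes, from 78.6 ± 9.57 to 53.7 ± 4.46 FPKM. Of changed genes that the naming rule did not select, ITGA3, ITGA7 and RPSA were higher and ITGA10 lower. RPSA also encodes a ribosomal protein and had a control mean of 1118 FPKM. It passed in 17 of 21 alternatives, and under quantile scaling its log2 fold change was 0.02 (limma adjusted p = 0.671). ITGA3 went from 173 ± 14.9 to 240 ± 44.0 FPKM and passed in 12 of 21 alternatives. ITGA7, at 0.23 (limma adjusted p = 0.0473), passed in only 9 of 19, and ITGA10 in 18 of 19. The integrin chain ITGB4 did not pass, at 3.22 ± 0.173 FPKM in control and 4.38 ± 1.04 in 6p (0.33 ± 0.14, limma adjusted p = 0.0834). With the length trend removed ITGB4 was at 0.49 ± 0.10 (0.00308). Limma adjusted p for the genes named from these 6 lists by rule ran from 0.000187 for MIA2 to 0.0196 for KLHL12. Rescaling to TPM ended the calls of P4HA2, P3H3, FKBP10, KLHL12, PCOLCE, PAPLN and MRC2. KLHL12 was also lost with the replicate block (0.0851) and without control replicate 2 (0.0980) or 6p replicate 2 (0.0696) or 3 (0.0716), and PCOLCE with the length trend removed and the block (0.0695).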

How the data were processed

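The deposited table holds FPKM, which divides fragments by gene length and by library size, as the authors computed it for 16070 genes in 6 libraries. A stranded mRNA kit was used, per the labels' protocols. Trimmomatic, HISAT2, HTSeq, Cufflinks and GRCh38 are named in the submitters' processing notes, and no source used here gives their roles or versions. No column of per-sample values was left unused. The 11745 genes averaging 0.5 FPKM or more entered limma 3.58.1 (R 4.3.3; eBayes, trend and robust options on). The scale was log2(FPKM + 1), which understates changes of low genes. Two-sided p-values were adjusted by Benjamini-Hochberg over these genes. Fragments and gene lengths were recovered from the steps in the values with Python 3.11.15; 100.0% of tested genes came out whole in every library (tolerance 0.001 fragments). Replicates differed by more than sampling noise (chi-square per degree of freedom from 2.06 to 33.4). Chain ratios were tested by exact permutation. Of 51 matching chains 1 is not reported here, and counts and medians over the chains leave it out. Members, gene lists and alternatives were chosen with earlier results of these data known.

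All tested chains but the one left out are named. Values in every library are given for changed chains that reach 1 FPKM in 1 group or more and for the most abundant unchanged chain of a class, with others added; up to 4 changed genes with the smallest adjusted p are named from each related list. The 21 alternatives were pseudocounts of 0.1 and 0.01, no filter, filters at 1 and at 5 FPKM, TPM, quantile, upper-quartile and median scaling, eBayes without trend and robust, and the replicate number as a block. The others removed each library's loess trend on length (span 0.5) with and without the block, left out each library, left out control replicate 3 and 6p replicate 1, and used limma voom on recovered fragments. Gene coordinates are from GENCODE release 29.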

Additional observations from a re-analysis of the deposited data

How the results depend on the processing

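Across the 18 tested chains and 21 alternatives, 315 of 366 fold changes kept their direction and side of the threshold, 16 lost a call, 27 gained one and 8 changed sign. COL6A2, COL16A1, COL17A1 and LAMB3 passed in every alternative that tested them. Higher chains are given with the percentage of all tested genes that were higher in brackets. They numbered 5 as reported (21.3%), 3 of 9 with a filter of 5 FPKM (22.2%) and 8 with median recentring (24.5%). Under TPM there were 2 (13.0%), and with the replicate block 3 (15.1%). With the length trend removed there were 11 (25.5%), and 10 with the block as well (21.6%). Without control replicate 3 and 6p replicate 1 there were 9 (30.2%). Leaving out 1 library gave 3 to 7 (14.8% to 23.1%), with 3 without control replicate 1, 6p replicate 2 or 6p replicate 3. Lower chains, with the percentage of all tested genes lower in brackets, numbered 2 as reported (25.1%). There were 3 of 50 with no filter (17.1%), 3 with quantile scaling (25.8%) and 3 without control replicate 3 (28.7%). Without both control replicate 3 and 6p replicate 1 there were 3 (35.7%). Leaving out 1 library gave 2 to 3 (15.2% to 28.7%). A filter of 5 FPKM left 1 of 9 (27.0%). Chains changed in either direction numbered 7 as reported, and 4, 4, 13, 12 and 12 with that filter, under TPM, with the length trend removed, with both trend removal and block, and without those 2 libraries. Of all tested genes, 46.5% changed as reported, and 49.3%, 47.0%, 53.3%, 45.0% and 65.8% under the same 5 settings. Sign changes with the length trend removed, identical with the block, were COL27A1 (0.12), COL7A1 (0.11) and LAMA3 (0.14). With 1 library left out, COL27A1 ran from -0.179 (without control replicate 3) to 0.0395 (without 6p replicate 1). LAMA2 was at -0.0154 under TPM. The cause of these differences was not tested.

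Of all genes, 5457 changed (2506 higher, 2951 lower). Higher genes numbered 1526 under TPM. Leaving out 1 library gave 3524 to 6095 changed genes, 1736 to 2718 higher and 1788 to 3377 lower, the fewest without control replicate 2. With the replicate block 1774 genes were higher and 1920 lower, and 3 chains higher and 2 lower. Deviations from the group means of same-numbered libraries gave correlations of -0.57, 0.33 and -0.42 for numbers 1 to 3. Control replicate 3 went best with 6p replicate 1 (0.63), and in both of these long genes read lower. Since the deviations ran with gene length, the correlations cannot tell whether same-numbered libraries were handled together. With 1 library left out, the log2 COL6A2 to COL6A1 ratio difference ran from 0.28 (without 6p replicate 1) to 0.50. The filter left out the 32 chains below 0.5 FPKM, 16 of which had no more than 10 fragments in all. With no filter all 50 were tested. Then 4 were higher and 3 lower, against 16.6% and 17.1% of 16070 genes. The calls of COL6A1 and LAMC3 were lost, so the chains called differed from those called with the filter.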

Other observations

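Several chain genes are neighbours, and neighbours did not all read alike. On chromosome 21 (45405137 to 46132849, GENCODE release 29 on GRCh38), the 4 tested genes are COL18A1, SLC19A1, COL6A1 and COL6A2. COL6A1 and COL6A2 were higher, COL18A1 was at 0.24 without passing, and SLC19A1, a folate transporter gene that overlaps the end of COL18A1, fell from 6.61 to 4.0004 FPKM (-0.61, limma adjusted p = 0.00133). The span was chosen after the values were seen.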
